A study of Mus musculus with 2 samples.

Results

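The genes described here encode the voltage-gated sodium and calcium channels with their auxiliary subunits, the hyperpolarisation-activated HCN channels and the TRPC, TRPM and TRPV cation channels. They were chosen by symbol alone, as the protein-coding genes named Scn with a number and a or b, Cacna, Cacnb, Cacng, Hcn, Trpc, Trpm or Trpv. The rule took 67 of the 55401 genes counted. It also took Trpc4ap, which encodes a TRPC-associated protein that is no channel, and Trpc5os, an opposite-strand gene. A level of 1 CPM (counts scaled to the library's size) or more in either library was reached by 38 of the 67, and most of these are described one by one.

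Hearts came from C57BL/6 mice. One group, called TAC, had transverse aortic constriction, in which a ligature around the aortic arch raises the load on the left ventricle. The other group had the constriction and dioscin, a plant steroidal saponin. The protocol names 4 weeks of dioscin in the same words for both samples, and the groups follow their treatment labels. Each group had 1 library of heart RNA, and the labels do not say whether it came from 1 heart or several, nor give the age or sex of the mice. A heart without constriction was not analysed here. No difference below therefore has a replicate check, no test of the treatment was possible, and all intervals are 95% intervals of the counts that cover counting error only. In heart RNA, fewer cells of a type and less RNA per cell cannot be told apart.

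The sodium channel opens first in each heartbeat and gives the upstroke of the action potential, with the current carried into muscle cells by an alpha subunit and tuned by beta subunits. L-type calcium channels then open, and their calcium triggers release from the sarcoplasmic reticulum. T-type calcium channels and HCN channels open at more negative voltages and are known for pacemaking in the sinus node and conduction system, and for their return in the overloaded ventricle. TRP channels are mostly non-selective cation channels, several of which respond to receptor signals, calcium, stretch or temperature.

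Gene counts summed to 16782741 for TAC and 17612259 for dioscin, where 3 counts correspond to 0.174 and 0.175 CPM. Mitochondrially encoded genes took 31.6% and 25.5% of them. Markers of working heart muscle were abundant in both libraries, with the 8 listed summing to 43982 and 49136 CPM. The 9 skeletal muscle markers summed to 8.63 and 9.99 CPM, with Tnni2 higher (31 and 86 counts), Pvalb lower (40 and 1) and Myh1, Myh4 and Myog at 0 counts in both. The 6 atrial muscle markers summed to 592 CPM without dioscin and 17319 CPM with it, with 5 of them higher. Of these sums, Nppa alone gave 588 and 12663 CPM. Without and with dioscin, Sln had 1 and 12433 counts, Myl7 had 13 and 30109, and Myl4 had 55 and 33721. Mybphl had 0 and 3427 counts, and Bmp10 had 0 and 3. Mesothelial markers summed to 18.5 and 158 CPM with 8 of 9 higher. Adipocyte markers summed to 0.811 and 31.1 CPM with 5 of 7 higher, which were all those at 1 CPM. Fibroblast markers summed to 1193 and 3531 CPM with 6 of 10 higher. Macrophage markers summed to 254 and 443 CPM with 2 of 10 higher and 1 lower. B and T cell markers summed to 14.4 and 4.91 CPM with 6 of 9 lower, which were all those at 1 CPM. Endothelial markers summed to 1966 and 2167 CPM with 2 of 9 higher and 1 lower, and melanocyte markers to 67.9 and 73.4 CPM with 1 of 6 higher. The libraries compared below thus also differ in these markers, whose part in the channel gene values was not tested. Sln, Myl7, Myl4 and Mybphl were scarce in the TAC library, and whether both libraries held the same parts of the heart was not tested.

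Below, higher and lower always mean with dioscin against without. A gene was called only if its level was at least 1 CPM on either side, the difference at least 2-fold and 1 outside the interval of the ratio. Listed markers and partners below 1 CPM thus could not be called, and the list totals include them. Of the 38 channel genes at 1 CPM, 6 were higher and 7 were lower, which is 34.2%. Of all 15697 genes at 1 CPM, 19.3% were called, with 10.5% higher and 8.77% lower. Among protein-coding genes alone it was 17.1%, with 9.8% higher and 7.27% lower. The calls over all genes split into 54.6% higher and the rest lower, but into 35.8% higher when libraries were scaled by total counts without mitochondrial genes. With 1 CPM required in both libraries, 2 channel genes were higher and 6 lower of 32, or 25%, against 13.8% of all genes (7.92% higher and 5.92% lower). Genes behind the difference between these counts include Cacna1e, Cacna2d3 and Cacng6, which reached 1 CPM in the dioscin library only, and Trpm5, which reached it in the TAC library only. Genes that pass on one side only had to differ, so the shares describe the set and support nothing. The median log2 ratio of the 38 genes was -0.35, beside 0.01 for all genes at 1 CPM, and 25 of the 38 had a ratio below 1.

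**Figure D1:**
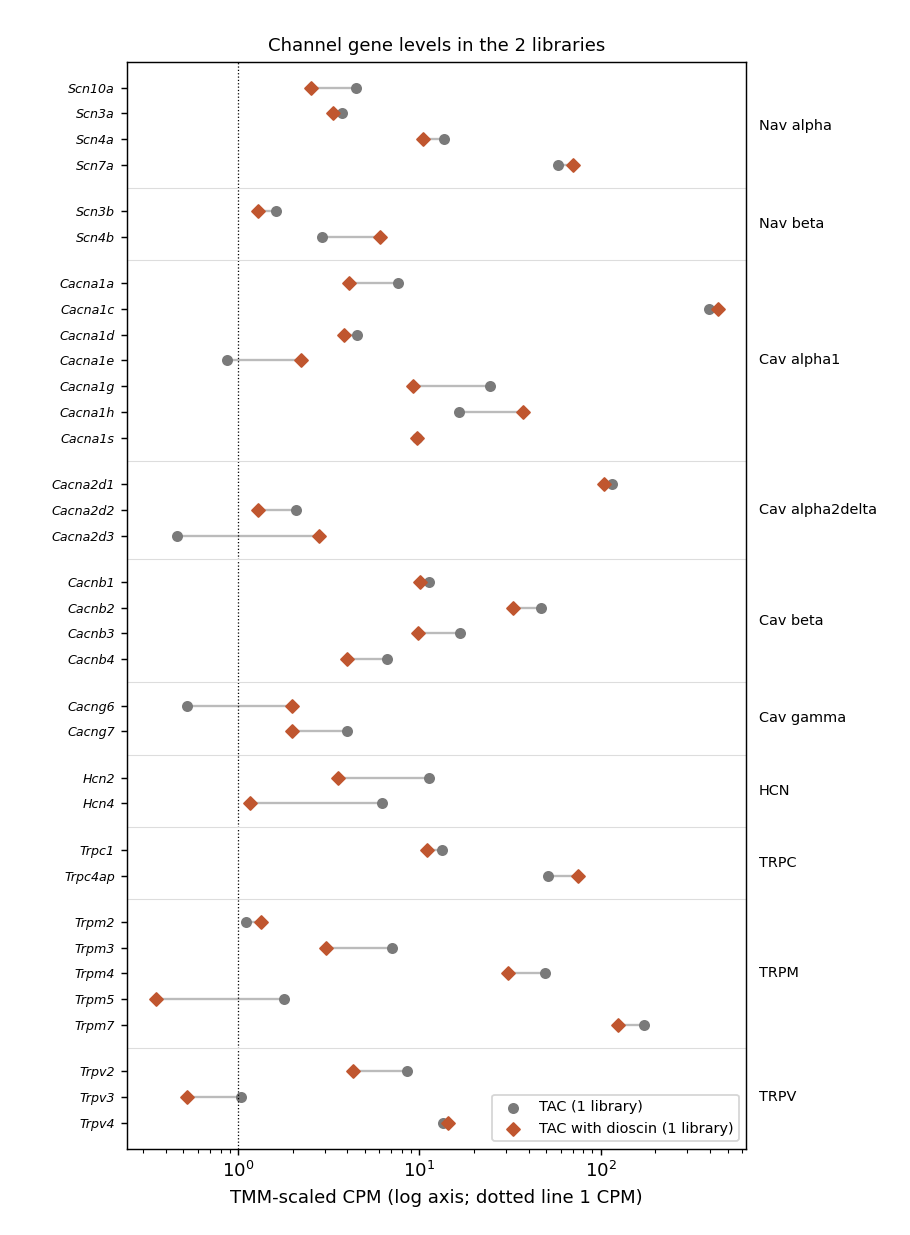
Levels of the channel genes described here in TMM-scaled CPM (log axis), with 1 point per library (circle TAC, diamond TAC with dioscin). The points of Cacna1g (24.5 and 9.17 CPM) and Cacna1h (16.4 and 37.3 CPM) lie far apart in opposite directions, whereas those of Cacna1c (395 and 443 CPM) nearly coincide.

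Channel genes were long, with a median exon length of 7998 bases against 4016 for all genes at 1 CPM, and 14 of the 38 were in the top decile of length, where all genes had a median log2 ratio of -0.06. In the top decile of GC content, which held 10 channel genes, that median was -0.15. With the trend over length and GC content subtracted, the same 13 genes were called and the median of the 38 was -0.30.

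Among the regulatory sequences, the 2 HCN genes that were lower and the calcium channel gene with the highest ratio are shown, and are 3 of the 5 called genes whose RefSeq starts have 250 upstream bases clear of annotated exons. The sequences are from RefSeq on GRCm38.p6, read 5′ to 3′ on the strand of the gene. Capitals mark the GC box, searched as GGGCGG, and the T-box half-site, searched as AGGTGT, each on both strands, so that the complement reads in the same place. Touching boxes were counted separately.
Hcn2, chr10:79716384-79716633, plus strand: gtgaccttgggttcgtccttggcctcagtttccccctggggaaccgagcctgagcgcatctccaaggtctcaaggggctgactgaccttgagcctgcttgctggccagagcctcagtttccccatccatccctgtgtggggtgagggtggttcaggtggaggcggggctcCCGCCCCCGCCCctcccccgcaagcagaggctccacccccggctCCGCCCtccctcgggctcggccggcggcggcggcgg
Hcn4, chr9:58822699-58822948, plus strand: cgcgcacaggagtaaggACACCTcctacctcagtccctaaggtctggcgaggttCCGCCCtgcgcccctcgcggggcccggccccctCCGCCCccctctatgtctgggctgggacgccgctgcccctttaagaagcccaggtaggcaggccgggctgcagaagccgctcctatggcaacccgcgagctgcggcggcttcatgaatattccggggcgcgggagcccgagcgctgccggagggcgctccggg
Cacna2d3, chr14:29721865-29722114, minus strand: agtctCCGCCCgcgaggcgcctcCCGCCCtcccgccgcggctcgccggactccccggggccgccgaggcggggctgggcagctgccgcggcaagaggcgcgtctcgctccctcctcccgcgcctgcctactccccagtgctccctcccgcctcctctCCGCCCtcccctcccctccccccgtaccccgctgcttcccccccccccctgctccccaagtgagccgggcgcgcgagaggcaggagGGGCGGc

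In these windows GC content was 70.4% for Hcn2, 71.2% for Hcn4 and 80% for Cacna2d3. The other 2 genes, Trpm3 and Trpm5, both lower, had 66.4% and 52.8% and none of the 4 motifs searched. The median over 32851 RefSeq windows of this length was 52.4%. GC boxes were found 3 times for Hcn2, 2 times for Hcn4 and 4 times for Cacna2d3, and 32.7% of all windows held at least 1. The T-box half-site was found once for Hcn4 and in 11.8% of all windows. The GATA factor motif AGATAA was in 9.99% of all windows and in none of these 3. The same holds for the glucocorticoid receptor half-site, AGAACA, which was in 16.1% of all windows. Of the 38 channel genes, 28 had a RefSeq window, and 17 of those had a GC box, 3 a T-box half-site, 1 the GATA motif and 6 the glucocorticoid half-site in at least 1 window. Some of these genes have several windows, 39 in all, so counts by gene cannot be set against the shares of single windows.

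Of the 10 pore-forming sodium channel genes, 5 reached 1 CPM. Scn7a, an atypical family member linked to sodium sensing in glia and other non-muscle cells, had 998 and 1197 counts (57.8 and 69.9 CPM, TAC first here and throughout), a ratio of 1.21 (1.11 to 1.32). Per kilobase of exon it stood at 7.88 and 9.53 CPM. Scn10a, a neuronal sodium channel gene, had 77 and 43 counts (4.46 and 2.51 CPM) and a ratio of 0.566 (0.379 to 0.829), short of 2-fold. The skeletal muscle gene Scn4a had 13.6 and 10.5 CPM, with a ratio of 0.769 (0.629 to 0.937). The neuronal gene Scn3a had 3.76 and 3.33 CPM, with a ratio of 0.886 (0.609 to 1.28). The ratios of Scn10a, Scn4a and Scn3a thus lay below 1 and that of Scn7a above it, and none was called. Of the neuronal markers, 1 of 10 was higher and 2 were lower, their sum was 21.7 and 15.9 CPM, and Th, Chat and Syt1 were at 0 counts in both libraries. The Schwann cell markers, with 1 of 8 higher and none lower, summed to 41.3 and 36.5 CPM. The part of these cells in the neuronal and glial sodium channel values was not tested.

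Of the beta subunits, which set channel gating and placement in the membrane, Scn4b was higher. This gene (ENSMUSG00000046480.6; chromosome 9, 45138395 to 45154152) had 50 and 104 counts (2.90 and 6.08 CPM), a ratio of 2.09 (1.48 to 3.002). The call for Scn4b sits near the 2-fold line and was lost with total-count scaling, with scaling without mitochondrial genes and with a pseudocount of 5. Scn3b had 28 and 22 counts, with a ratio of 0.796 (0.432 to 1.44). Scn2b had 6 and 3 counts, below 1 CPM.

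**Figure D2:**
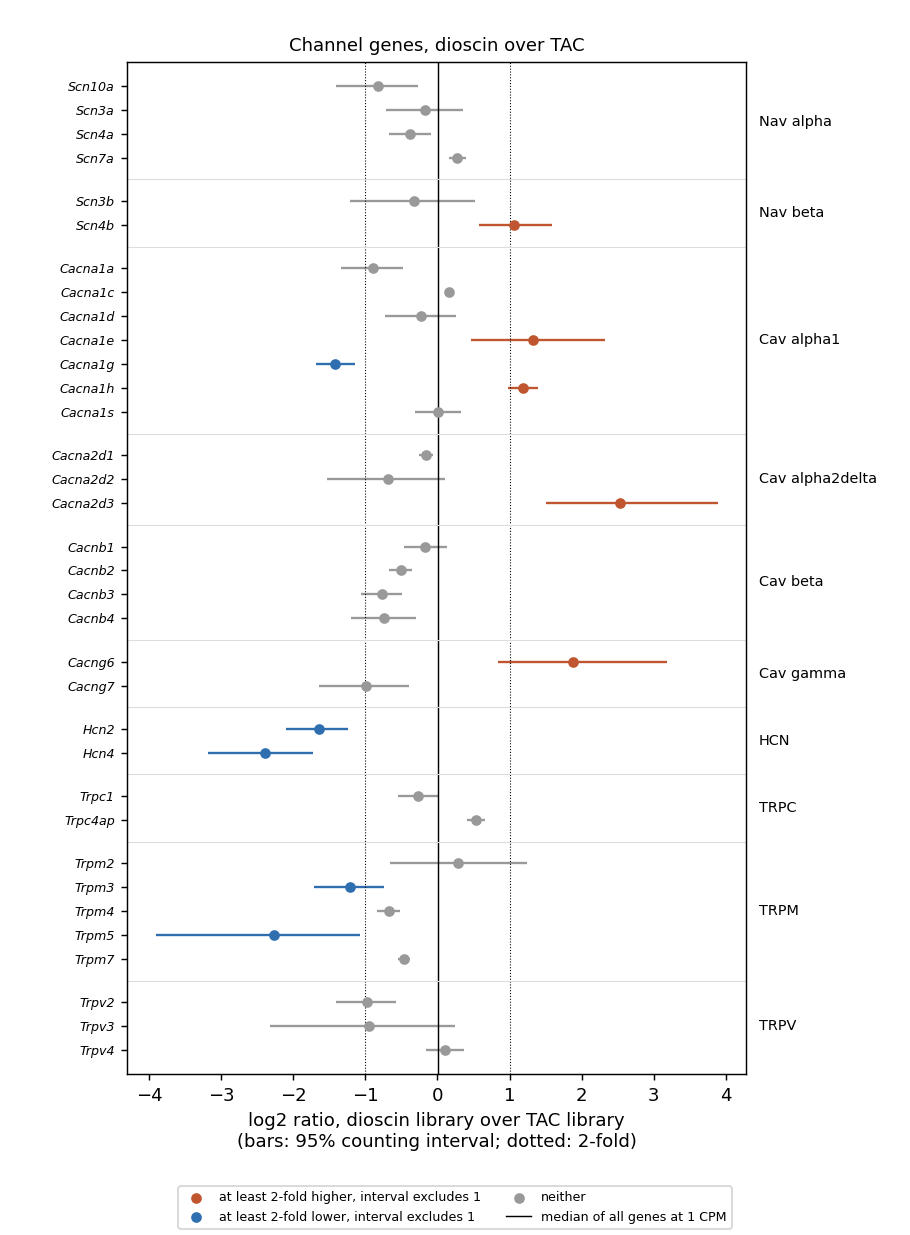
Ratios with over without dioscin (log2) for the channel genes described here, by family, with 95% counting intervals as bars, the 2-fold lines dotted and the median of all genes as a solid line. Points in red-brown were called higher and in blue lower. All 4 calcium channel beta genes lie left of the median of all genes, and Hcn2 and Hcn4 lie beyond the 2-fold line on the lower side.

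The L-type calcium channel gene of heart muscle, Cacna1c, was abundant and differed little. Cacna1c (ENSMUSG00000051331.16; chromosome 6, 118587240 to 119196418) had 6829 and 7590 counts (395 and 443 CPM), a ratio of 1.12 (1.09 to 1.16) that fell below 1 when libraries were scaled without mitochondrial genes. It made up 96.5% of L-type counts in the TAC library (96.04% to 96.9%) and 97.02% in the dioscin library (96.6% to 97.4%). Cacna1d, the L-type gene of sinus node and atrium, had 78 and 66 counts, with a ratio of 0.855 (0.606 to 1.20). Cacna1s, the L-type gene of skeletal muscle, had 167 counts in each library. Exons of Gm37759 on the other strand overlap 19.98% of its exon length, and unstranded reads cannot be told apart there.

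The T-type genes differed in opposite directions. Cacna1g (ENSMUSG00000020866.17; chromosome 11, 94408391 to 94474198) had 423 and 157 counts (24.5 and 9.17 CPM) and was 2.67-fold lower (2.22 to 3.23). Cacna1h (ENSMUSG00000024112.16; chromosome 17, 25374285 to 25433783), a T-type gene known for its return in the overloaded ventricle, had 284 and 638 counts (16.4 and 37.3 CPM) and was 2.26-fold higher (1.97 to 2.62). Scaled without mitochondrial genes, Cacna1h was no longer 2-fold higher. Cacna1g made up 59.8% of the counts of the pair in the TAC library (56.1% to 63.5%) and 19.7% in the dioscin library (17.04% to 22.7%). The count ratio of Cacna1g to Cacna1h went from 1.49 to 0.246, 6.05-fold lower (4.81 to 7.62), a value that does not depend on scaling. In the dioscin library Cacna1h was thus the main T-type gene, and in the TAC library Cacna1g was.

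The neuronal alpha genes were scarce. Cacna1e, the R-type gene, had 15 and 38 counts (0.869 and 2.22 CPM) and was 2.51-fold higher (1.37 to 5.001). Cacna1a, the P/Q-type gene, had 132 and 70 counts (7.64 and 4.09 CPM), with a ratio of 0.537 (0.395 to 0.720). Per kilobase of exon, Cacna1e had 0.0344 and 0.0880 CPM, and in the dioscin library Trpm5 was the lower of the 2 at 0.0548 CPM.

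**Figure D3:**
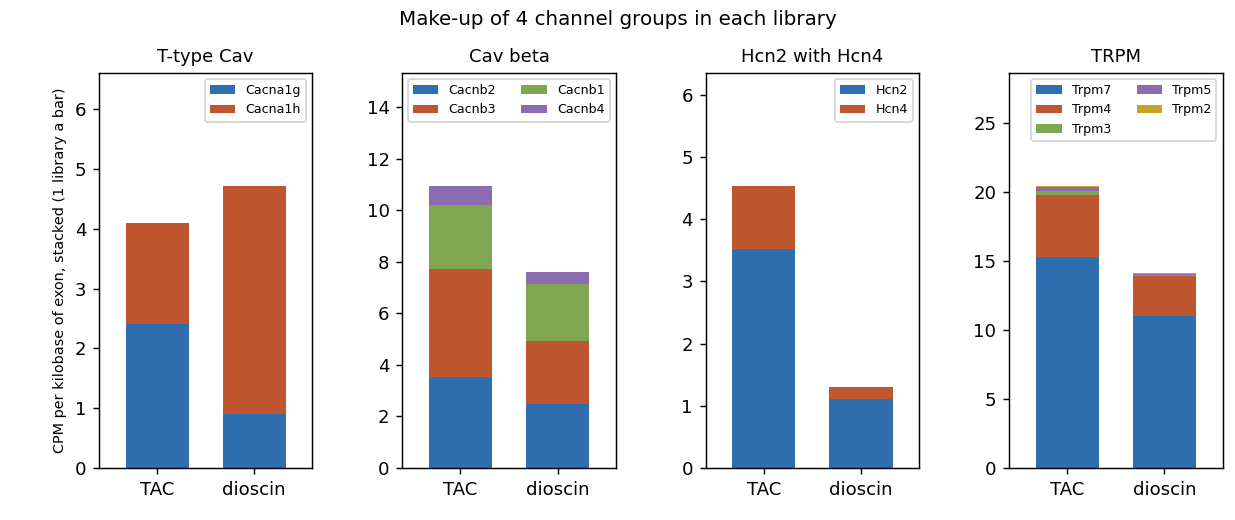
Stacked levels in CPM per kilobase of exon for the T-type genes, the calcium channel beta genes, Hcn2 with Hcn4, and the TRPM genes at 1 CPM, with 1 bar per library. Cacna1h replaces Cacna1g as the larger part of the T-type bar, and the bar of Hcn2 with Hcn4 is shorter in the dioscin library.

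Among the alpha2delta subunits, which carry the channel to the membrane, Cacna2d1 was the main gene in both libraries. It had 2000 and 1772 counts (116 and 104 CPM), with a ratio of 0.894 (0.838 to 0.953). Cacna2d3 (ENSMUSG00000021991.9; chromosome 14, 28904943 to 29721864) had 8 and 48 counts (0.463 and 2.80 CPM) and was 5.76-fold higher (2.84 to 14.8). Cacna2d2 had 36 and 22 counts, with a ratio of 0.622 (0.346 to 1.08). Cacna2d1 still made up 96.2% of the counts of the family in the dioscin library (95.2% to 97.03%) and 97.8% in the TAC library (97.01% to 98.3%).

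None of the 4 cytoplasmic beta subunit genes passed the 2-fold rule, and all 4 had a ratio below 1 under every scaling tried. Cacnb2, the main cardiac beta subunit gene, had 805 and 560 counts (46.6 and 32.7 CPM), with a ratio of 0.702 (0.629 to 0.783). Cacnb3 had 16.8 and 9.81 CPM, with a ratio of 0.585 (0.480 to 0.709). Cacnb4 had 6.66 and 3.97 CPM, with a ratio of 0.598 (0.435 to 0.812), and exons on the other strand overlap 15.99% of its length. Cacnb1 had 11.4 and 10.1 CPM, with a ratio of 0.891 (0.722 to 1.10) that went above 1 once the length and GC trend was subtracted. Counts of Cacnb2 relative to Cacna1c were 0.118 and 0.0738, 1.598-fold lower in the dioscin library (1.43 to 1.79). The make-up of the beta family differed little, with Cacnb2 at 57.3% (54.6% to 59.9%) and 57.8% (54.6% to 60.9%) of its counts.

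Of the 8 gamma subunit genes, Cacng6 and Cacng7 reached 1 CPM. Cacng6, a gene of muscle calcium channels (ENSMUSG00000078815.8; chromosome 7, 3424195 to 3435667), had 9 and 34 counts (0.521 and 1.99 CPM) and was 3.66-fold higher (1.79 to 9.04). Cacng7, better known in brain, had 69 and 34 counts (4.00 and 1.99 CPM). Its ratio of 0.501 (0.320 to 0.760) was the nearest to 2-fold lower of all channel genes that were not called, and it was called lower with the 3 other scalings. Cacng7 held 81.2% of gamma counts in the TAC library (71.2% to 88.8%) and 48.6% in the dioscin library (36.4% to 60.8%).

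Among the HCN genes, which encode the pacemaker current, Hcn4 and Hcn2 were lower. Hcn4, the main HCN gene of the sinus node and conduction system (ENSMUSG00000032338.9; chromosome 9, 58823412 to 58863175), had 108 and 20 counts (6.25 and 1.17 CPM) and was 5.25-fold lower (3.30 to 9.11). Hcn2, the main HCN gene of ventricular muscle (ENSMUSG00000020331.9; chromosome 10, 79716634 to 79736108), had 194 and 61 counts (11.2 and 3.56 CPM) and was 3.13-fold lower (2.35 to 4.28). The ratio of Hcn2 to Hcn4 counts was 1.80 and 3.05, and the interval of its difference, 0.973 to 2.96, includes 1. The difference between the HCN genes that were lower was therefore not detectable at this depth.

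Of the 10 conduction system markers, 1 was lower and none higher, and their sums were 116 and 103 CPM. The lower one was Cntn2, a cell adhesion gene of the ventricular conduction system, at 219 and 13 counts (12.7 and 0.759 CPM), 16.1-fold lower (9.56 to 31.9). Tbx3, a transcription factor of the conduction system, had 26.3 and 30.7 CPM. Isl1 had 0 and 2 counts and Vsnl1 had 0 and 3, below 1 CPM, and Gjd3 had 0 in both libraries. Relative to Tbx3, Hcn4 counts were 6.24-fold lower in the dioscin library (3.81 to 10.2), and relative to Cntn2 they were 3.12-fold higher (1.495 to 6.51). Cntn2, chosen after its values were seen, was lower by more than Hcn4, so the direction relative to Cntn2 was fixed by that choice. Of the 8 heart muscle markers, not all of them particular to the ventricle, only Irx4 was called. Irx4, a ventricular transcription factor, had 896 and 211 counts and was 4.201-fold lower (3.62 to 4.91). Ratios of the rest ran from 0.785 (0.779 to 0.791) for Myl2 to 1.59 (1.56 to 1.61) for Actc1. The part of conduction tissue or of the ventricle sampled in the values of Hcn4, Hcn2 and Cacna1g was not tested.

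TRPC genes encode cation channels opened downstream of G protein-coupled receptors. Trpc1 had 229 and 189 counts (13.3 and 11.04 CPM), with a ratio of 0.833 (0.683 to 1.01). Trpc6, studied in hypertrophy, had 5 counts and 1 count, below 1 CPM. Trpc4ap, the associated protein, had 51.3 and 74.5 CPM, with a ratio of 1.453 (1.33 to 1.58).

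Trpm7 and Trpm4 made up most of the TRPM counts, and neither passed the 2-fold rule. Trpm7, a magnesium-permeable channel with a kinase domain, had 2984 and 2139 counts (173 and 125 CPM), with a ratio of 0.723 (0.684 to 0.765). Trpm4, a calcium-activated cation channel found in conduction tissue and atrium, had 850 and 528 counts (49.2 and 30.8 CPM), with a ratio of 0.627 (0.561 to 0.699). Trpm3 (ENSMUSG00000052387.16; chromosome 19, 22139046 to 22995410), a steroid- and heat-sensitive channel, had 122 and 52 counts (7.06 and 3.04 CPM) and was 2.31-fold lower (1.67 to 3.28). Trpm5 (ENSMUSG00000009246.14; chromosome 7, 143069153 to 143094642), a taste-cell channel, had 31 and 6 counts and was 4.80-fold lower (2.11 to 15.0). Trpm2, a channel opened by oxidative stress, had 19 and 23 counts, with a ratio of 1.22 (0.636 to 2.37).

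Among the TRPV genes none was called. Trpv4, a channel sensitive to stretch and osmolarity, had 232 and 247 counts (13.4 and 14.4 CPM), and its ratio of 1.07 (0.894 to 1.29) went below 1 with scaling without mitochondrial genes. Trpv2, studied in dystrophic and failing muscle, had 148 and 74 counts (8.57 and 4.32 CPM), with a ratio of 0.506 (0.376 to 0.671). It was called lower with total-count scaling and with scaling without mitochondrial genes. Trpv3 had 18 and 9 counts, with a ratio of 0.518 (0.200 to 1.18). Smooth muscle and pericyte markers, another source of TRP channel RNA, summed to 1767 and 1599 CPM, with 1 of 11 higher and 3 lower, and the part of these cells was not tested.

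Levels per kilobase of exon differed in order among the abundant genes described. In the TAC library they ran from Cacna1c (18.7 CPM per kilobase) through Trpm7 (15.3) and Cacna2d1 (9.33) to Scn7a (7.88), with counting intervals that did not overlap between these neighbours. In the dioscin library Cacna1c (20.9 CPM per kilobase) and Trpm7 (11.04) were followed by Scn7a (9.53), Trpc4ap (8.52) and Cacna2d1 (8.34), and the intervals of Trpc4ap and Cacna2d1 overlapped. Cacna1h stood at 1.68 and 3.82 CPM per kilobase and Hcn2 at 3.52 and 1.12.

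The other 29 channel genes had at most 11 counts without dioscin and 13 with it. Of these, 10 had no count in either, namely Scn9a, Cacng1, Cacng2, Cacng3, Trpc2, Trpc5, Trpc5os, Trpm8, Trpv5 and Trpv6. A count of 0 allows a level of up to 0.174 CPM (TAC) and 0.175 CPM (dioscin). The TAC library had more counts for 15 of the 29 and the dioscin library for 4. Just below the 1 CPM limit were Trpv1, the capsaicin receptor, at 3 and 13 counts (0.759 CPM in the dioscin library), and Trpm6 at 11 and 3 counts (0.637 CPM in the TAC library). Just above it were Trpv3 (1.04 CPM) and Trpm2 (1.10 and 1.34 CPM).

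Partner genes of the channels, listed by binding or regulation but with earlier results of these data known, had 57 of 65 members at 1 CPM. Of these, 5 were higher and 4 lower, with a median log2 ratio of 0.05 beside 0.01 for all genes. Of all genes at 1 CPM, 10.5% were higher and 8.77% lower. The partner counts, here and by list below, lie near those shares or rest on few genes, and are no result about partners. What part the differences in atrial and other markers have in the partner gene values was not tested. Of 14 sodium channel partners, 3 were higher and 1 was lower, with a median of 0.18. Fgf12, an intracellular FGF homologous factor that binds sodium channels, had 0 and 633 counts (36.98 CPM), at least 213-fold higher against a floor of 3 counts in the TAC library. Fgf14, of the same family, had 27 and 91 counts and was 3.36-fold higher (2.19 to 5.44). Fgf13 had 8.45 and 9.64 CPM, with a ratio of 1.14 (0.907 to 1.43). Ank3, which encodes ankyrin-G, the anchor of the sodium channel at the intercalated disc, was 2.06-fold higher (1.85 to 2.29). Sntb1, a syntrophin, was 2.58-fold lower (1.65 to 4.22). The most abundant partners per kilobase did not pass, with ratios of 1.34 (1.18 to 1.52) for the caveolin gene Cav3 and 1.12 (1.04 to 1.22) for the 14-3-3 gene Ywhah. For Rangrf, a trafficking factor, the ratio was 1.10 (0.962 to 1.26), and Slc25a35 on the other strand overlaps 90.7% of its exons.

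Calcium channel partners had 1 of 23 members higher and 1 lower, with a median of -0.18. Akap5, the anchor of protein kinase A and calcineurin at L-type channels, had 242 and 20 counts (14.01 and 1.17 CPM) and was 11.7-fold lower (7.60 to 20.0). Gem, a small GTPase that inhibits L-type channels through their beta subunits, had 95 and 209 counts and was 2.21-fold higher (1.73 to 2.86). Its relative Rrad had 150 and 91.3 CPM, with a ratio of 0.608 (0.570 to 0.647). The calmodulin gene Calm2 had 89.1 and 119 CPM, with a ratio of 1.34 (1.25 to 1.43).

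Of the HCN partners, 1 of 9 was lower and none higher, with a median of -0.30. Lrmp, a regulator of the HCN4 protein, had 158 and 58 counts and was 2.69-fold lower (1.99 to 3.71). The filamin gene Flna had a ratio of 0.756 (0.728 to 0.786), Tbx3 had 1.17 (1.03 to 1.33) and Mrvi1 had 0.982 (0.853 to 1.13). In the list of TRP and store-operated entry genes, 1 of 19 was higher and 1 lower, with a median of 0.10. Saraf, which turns off store-operated calcium entry, had 1053 and 2638 counts (61.0 and 154 CPM) and was 2.53-fold higher (2.35 to 2.72). Homer2, a scaffold of receptors and TRPC channels, had 598 and 253 counts and was 2.34-fold lower (2.02 to 2.72). The G protein gene Gna11 had a ratio of 1.03 (0.945 to 1.12) and the phospholipase gene Plcb4 had 1.07 (1.01 to 1.14).

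**Figure D4:**
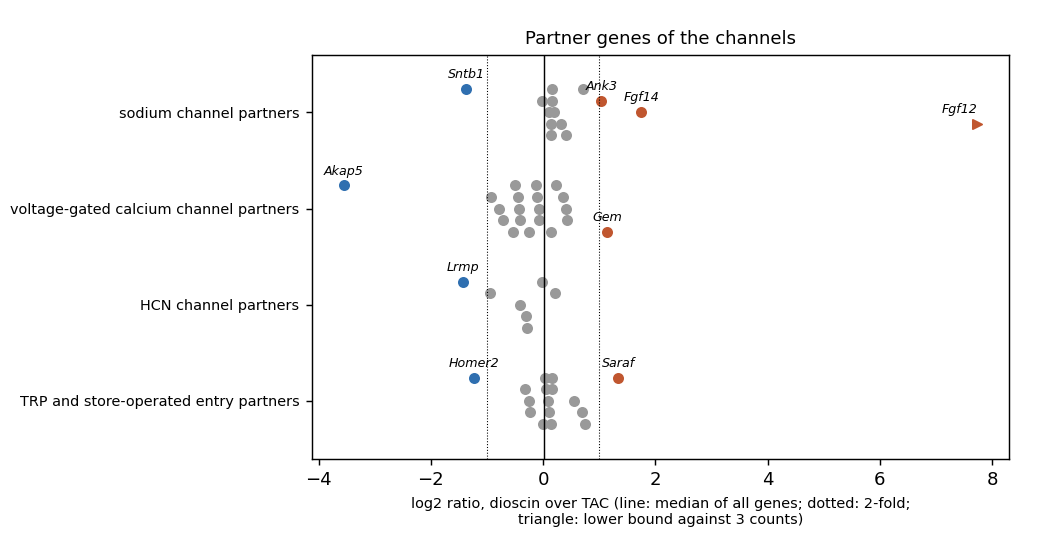
Ratios with over without dioscin (log2) for partner genes at 1 CPM, in 4 lists, with 1 point per gene, genes past the 2-fold rule named and Fgf12 drawn at its lower bound. Most points lie between the 2-fold lines, and Akap5 lies farthest left.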

How the data were processed

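Deposited were unnormalized gene-level read counts, from reads aligned to mm10 with HISAT2 2.1.0 and counted with HTSeq, per the submitters' processing notes. RNA was made into libraries with an unstranded TruSeq RNA kit, per the labels' protocols. For HTSeq, the version, annotation and strand setting are not given in the sources used here. Its 5 summary lines were left out, including reads in no feature (30.04% and 30.03% of all lines counted in the TAC and dioscin libraries), ambiguous reads (1.49% and 1.39%), poorly aligned reads (1.48% in each), unaligned reads (2.59% and 2.17%) and reads with several alignments (38.2% and 36.5%).

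Of 55401 identifiers, 55141 matched GENCODE M21 (GRCm38) without the version number. Counts were scaled with TMM factors (edgeR 4.0.16, R 4.3.3). Log2 ratios used a pseudocount of 0.5, ratios carry exact 95% Clopper-Pearson intervals, and differences of ratios within libraries carry Wald intervals of their 4 counts. With 1 library a group no model was fitted. The calling rule was tested on simulated data. The simulation held counting error only, and its changed genes were at 5 CPM or more and differed at least 3-fold. It cannot speak to variation between hearts, or to recovery of differences near 2-fold or below 5 CPM. Channel genes at 1 CPM are named, as are partner genes past the rule and the most abundant of each list, except a few genes that are not reported here but stay in all counts and medians. For marker lists only sums, counts and a few members are given, except the atrial list, which is given in full. Cntn2, Irx4, Myl2, Actc1, Tnni2, Pvalb, Phox2a, Prph, the genes at 0 counts and the partner Fgf13 were chosen after their values were seen. The 1 CPM limit in both libraries was added after seeing the data. Members, lists and motifs were chosen with earlier results of these data known.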

Additional observations from a re-analysis of the deposited data

How the results depend on the processing

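With 1 library a group, no replicate could be left out, and depth limits ratios of genes with few counts, as for Trpm5. No paired analysis was possible because each group had 1 library. Of the channel genes, 6 were higher and 7 lower. Without mitochondrial genes in the scaling, which moved the median log2 ratio of all genes from 0.01 to -0.19, 11 channel genes and 2286 of all genes were lower, with Cacna1h and Scn4b lost and Cacna1a, Cacng7, Scn10a and Trpv2 gained. With a 5 CPM filter, 2 channel genes were higher, and 1045 and 695 of all genes were higher and lower. At 1.5-fold, 14 channel genes were lower, and 3187 and 2815 of all genes were higher and lower. At 3-fold, 3 channel genes were higher and 3 lower, and 781 and 554 of all genes. With 1 CPM in both libraries, 2 channel genes were higher and 837 of all genes lower. DESeq2 size factors (version 1.42.0), total counts, a pseudocount of 5, no filter and the length and GC trend left the counts of channel genes within 1.5 times. None of the 13 called genes changed direction under the scalings, the pseudocount of 5 or the trend. Without the filter, Trpv1 was added as higher and Cacng8 as lower.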

Other observations

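Several of these genes lie side by side, and some neighbours shared a direction while others did not. Scn3a and Scn2a, on chromosome 2, had log2 ratios of -0.18 and -0.17, with 8 and 7 counts for Scn2a. Scn11a, next to Scn10a (-0.82), had 3 and 0 counts. Scn4b, 8325 bases from Scn2b on chromosome 9, was higher, while Scn2b had 6 and 3 counts. Cacng7 and Cacng6 flank Cacng8 on chromosome 7, with log2 ratios of -0.998 and 1.87, and Cacng8 had 6 and 0 counts. Cacna2d3 and Cacna1d, 318075 bases apart on chromosome 14, had 2.53 and -0.23. Dbh, which encodes the noradrenaline-making enzyme of sympathetic nerves, had 46 and 0 counts (TAC first), at least 15.2-fold lower against a floor of 3 counts. Dbh was picked out after its values were seen. Of the other neuronal markers, Phox2a was lower (18 and 2 counts), Prph was higher (4 and 23 counts), and Th had 0 counts in both libraries.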
